A study of Mus musculus with 10 samples.

Results

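The loci of 5 T lineage transcription factors, Tcf7, Lef1, Bcl11b, Satb1 and Ets1, were described by ATAC-seq, an assay that maps open chromatin by the sites where a transposase can insert adapters. A region of the table of insertion counts was taken if it overlapped the gene body or lay within 50 kb of the 5′ end of the gene record. For Bcl11b, regions from 50 kb to 1 Mb downstream of that end were added, since distal control elements of this gene are known to lie in the gene desert there. These rules gave 323 of 94823 regions: 34 at Tcf7, 32 at Lef1, 130 at Bcl11b (58 at the gene and 72 far downstream), 56 at Satb1 and 71 at Ets1.

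The study measured thymic invariant natural killer T (iNKT) cells, which recognise lipids presented by CD1d. iNKT1 cells, sorted as CD27+ CD122+, produce interferon-γ, and iNKT2 cells, sorted as CD27+ CD122-, produce interleukin-4. Donors were wild-type BALB/c mice or SKG mice, in which a hypomorphic allele of Zap70, on the BALB/c background, weakens the kinase next to the T cell receptor in every T cell of the animal. Of the 10 libraries, 4 were of iNKT1 cells, 2 from each strain, and 6 of iNKT2 cells, 3 from each strain. The ages given for mice in the study are 8 to 10 weeks. The sources used here do not say how many animals each library pooled, so the p-values measure the spread between these libraries, which may be technical.

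TCF-1 (Tcf7) and LEF-1 (Lef1) are DNA-binding proteins of one family that bind the same short motif and act with β-catenin or with Groucho/TLE corepressors, and both take part in early T cell and iNKT cell development. BCL11B is a zinc-finger protein that fixes T lineage commitment in the thymus. SATB1 organises chromatin loops in thymocytes, and ETS1 is a founding ETS family factor that lymphocytes use throughout development. Differences in accessibility at such loci mark candidate control elements, not amounts of protein.

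Insertions inside the regions totalled 14988590 to 36342635 per library. Levels are given as CPM, counts of insertions divided by the TMM-scaled library total and multiplied by 1000000. The iNKT1 promoter list (5 of its 6 genes had a region, Il2rb among them, which encodes the CD122 of the sort) summed to 265 to 282 CPM in the iNKT1 libraries and to 47.1 to 72.1 CPM in the iNKT2 libraries. The iNKT2 list overlapped between the subsets, with 89.0 to 104 CPM in iNKT1 and 87.5 to 129 CPM in iNKT2, as did the 2 iNKT promoters, Zbtb16 and Slamf6 (35.1 to 57.5 CPM). The genes of the iNKT2 list went different ways. Il4 (10.3 to 19.0 CPM in iNKT1, 2.23 to 10.1 CPM in iNKT2) and Icos (51.6 to 63.6 and 37.4 to 49.3 CPM) were higher in iNKT1. Il17rb was higher in iNKT2 (6.74 to 9.26 and 15.1 to 18.9 CPM), and Ccr7 and Gata3 overlapped. T lineage promoters summed to 89.4 to 103 CPM in iNKT1 and 57.5 to 81.0 CPM in iNKT2. Promoters of iNKT17 genes (4 of 5 had a region) summed to 6.88 to 7.76 CPM in iNKT1 and to 22.9 to 38.7 CPM in iNKT2, and their part in the subset results was not tested. None of the 4 B cell promoters, 1 of 6 immature thymocyte promoters (Cd8a, at most 1.93 CPM) and 2 of 4 myeloid promoters (summed, at most 8.47 CPM) had a region.

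The regions on which the comparisons turn are shown first, as the central 300 bases of the plus strand of GRCm38.p6 (mm10) from RefSeq. The reference is not the BALB/c genome, so single letters may differ in these mice. Capitals mark exact matches, on either strand, to 8 motif strings: TCF/LEF CTTTGA, ETS CAGGAA, RUNX TGTGGT, NFAT TGGAAA, EGR GTGGGCG, E-box CAGCTG, T-box GGTGTGA, and for GATA factors AGATAA. The Tcf7 region and the Bcl11b regions at 78.6 and 866.4 kb were open mainly in iNKT1, and the Lef1 and Satb1 regions and the Bcl11b region at 819.1 kb mainly in iNKT2. The Ets1 region was higher in SKG than in BALB/c in iNKT2. In iNKT1 its SKG level was lower, with an edgeR adjusted p of 0.051.
Tcf7, 44.3 kb upstream, chr11:52327181-52327480: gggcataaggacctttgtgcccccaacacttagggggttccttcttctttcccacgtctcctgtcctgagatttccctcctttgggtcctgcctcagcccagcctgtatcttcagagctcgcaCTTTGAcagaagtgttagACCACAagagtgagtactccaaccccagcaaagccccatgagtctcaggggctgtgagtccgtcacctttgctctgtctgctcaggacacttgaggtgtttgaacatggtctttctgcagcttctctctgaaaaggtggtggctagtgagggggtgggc
Lef1, 27.9 kb downstream, chr3:131138246-131138545: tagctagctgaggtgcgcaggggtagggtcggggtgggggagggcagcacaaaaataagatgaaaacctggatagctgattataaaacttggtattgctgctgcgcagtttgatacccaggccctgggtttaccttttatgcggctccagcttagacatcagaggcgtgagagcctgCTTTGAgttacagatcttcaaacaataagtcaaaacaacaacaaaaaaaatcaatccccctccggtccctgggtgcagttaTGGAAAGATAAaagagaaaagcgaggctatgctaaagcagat
Lef1, 80.4 kb downstream, chr3:131190704-131191003: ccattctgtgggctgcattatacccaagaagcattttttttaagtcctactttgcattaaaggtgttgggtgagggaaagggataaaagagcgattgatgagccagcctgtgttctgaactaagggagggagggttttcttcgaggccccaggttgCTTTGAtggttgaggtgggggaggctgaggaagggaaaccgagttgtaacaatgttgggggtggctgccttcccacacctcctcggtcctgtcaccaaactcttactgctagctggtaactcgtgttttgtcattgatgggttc
Bcl11b, 78.6 kb downstream, chr12:107924846-107925145: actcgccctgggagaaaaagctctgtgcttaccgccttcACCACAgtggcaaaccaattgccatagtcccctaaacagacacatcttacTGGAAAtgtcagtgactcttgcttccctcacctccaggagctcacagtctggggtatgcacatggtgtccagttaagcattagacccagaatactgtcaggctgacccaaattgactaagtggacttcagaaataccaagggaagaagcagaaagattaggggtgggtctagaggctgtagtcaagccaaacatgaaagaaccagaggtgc
Bcl11b, 819.1 kb downstream, chr12:107184391-107184690: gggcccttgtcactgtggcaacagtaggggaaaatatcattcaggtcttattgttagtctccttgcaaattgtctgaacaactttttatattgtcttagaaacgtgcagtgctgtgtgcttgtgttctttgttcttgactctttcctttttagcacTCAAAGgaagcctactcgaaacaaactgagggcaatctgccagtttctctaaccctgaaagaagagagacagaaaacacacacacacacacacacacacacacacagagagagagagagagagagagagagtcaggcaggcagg
Bcl11b, 866.4 kb downstream, chr12:107137031-107137330: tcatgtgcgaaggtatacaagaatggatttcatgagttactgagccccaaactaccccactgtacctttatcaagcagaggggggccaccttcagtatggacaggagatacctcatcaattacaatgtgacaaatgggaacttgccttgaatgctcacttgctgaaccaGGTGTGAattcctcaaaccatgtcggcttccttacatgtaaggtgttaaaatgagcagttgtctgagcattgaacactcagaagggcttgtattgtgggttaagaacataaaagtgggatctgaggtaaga
Satb1, 24.5 kb upstream, chr17:51857686-51857985: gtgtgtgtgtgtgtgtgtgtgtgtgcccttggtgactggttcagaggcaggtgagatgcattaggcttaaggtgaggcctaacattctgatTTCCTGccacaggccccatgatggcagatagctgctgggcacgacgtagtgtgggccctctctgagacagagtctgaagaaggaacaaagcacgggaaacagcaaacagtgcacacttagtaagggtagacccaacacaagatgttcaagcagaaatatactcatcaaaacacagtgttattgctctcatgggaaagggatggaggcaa
Ets1, 107.7 kb downstream, chr9:32743745-32744044: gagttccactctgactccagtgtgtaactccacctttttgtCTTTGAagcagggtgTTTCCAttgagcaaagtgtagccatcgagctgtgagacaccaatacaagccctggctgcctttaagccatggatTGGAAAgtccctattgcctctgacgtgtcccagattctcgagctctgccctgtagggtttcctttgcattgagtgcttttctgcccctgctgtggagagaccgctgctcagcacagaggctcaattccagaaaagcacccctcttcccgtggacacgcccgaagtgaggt

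The Tcf7 region held 1 TCF/LEF and 1 RUNX string, and both Lef1 regions and the Bcl11b region at 819.1 kb held 1 TCF/LEF string each. At 27.9 kb of Lef1 an NFAT and a GATA string overlapped by a base. The Bcl11b region at 78.6 kb held RUNX and NFAT strings, the one at 866.4 kb a T-box string, and the Satb1 region an ETS string. The Ets1 region held a TCF/LEF string and 2 NFAT strings, one on each strand. A match of this kind is a description of the letters, not a bound site.

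The first question was which regions at these loci distinguish the subsets in BALB/c mice. Most regions were not called, and those that were lay away from the promoters: Lef1 had regions that were open almost only in iNKT2, Tcf7 had a distal region open almost only in iNKT1, and Bcl11b had both kinds, most of them in the desert far downstream. A region was called when the adjusted p over all regions was under 0.01 and the fitted change at least 4-fold (edgeR quasi-likelihood F test, Benjamini-Hochberg). In BALB/c iNKT2, 23 member regions (7.12%) were called higher than in BALB/c iNKT1, against 15.5% of all regions, and 17 (5.26%) were called lower, against 6.36% of all regions. Without BALB/c iNKT1 replicate 1 the lower count was 11. With the adjusted p alone, 50 (15.5%, against 25.7% of all regions) were higher and 86 (26.6%, against 23.4%) lower. At this milder threshold more member regions were lower than higher in iNKT2, with the higher share below that of all regions and the lower share near it. The same comparison in SKG mice called 30 (9.29%, against 10.2% of all regions) higher in iNKT2 and 15 (4.64%, against 6.96%) lower. There the adjusted p alone gave 65 (20.1%, against 18.4%) higher and 58 (18.0%, against 17.6%) lower, both near the shares of all regions.

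**Figure D1:**
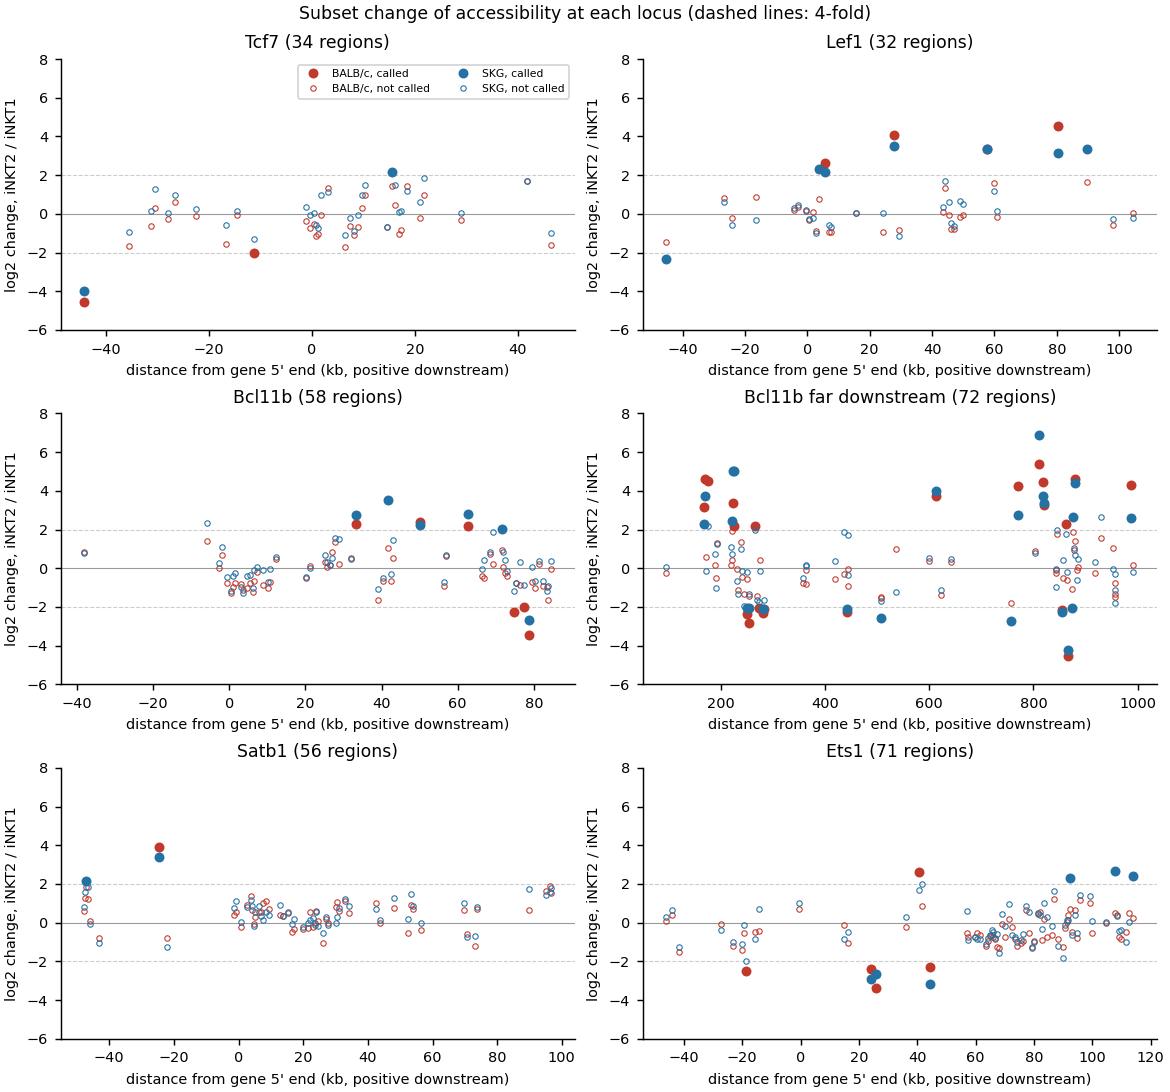
Fitted log2 change of accessibility, iNKT2 over iNKT1 (vertical axis), against distance from the 5′ end of the gene record in kb (horizontal axis), for the 323 regions in 6 panels; red is BALB/c, blue is SKG, and filled points are called (edgeR adjusted p under 0.01 and 4-fold). The promoter regions stay inside the dashed 4-fold lines, while Lef1 has filled points above them inside the gene and the far downstream desert of Bcl11b has filled points on both sides.

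The direction was shared between the genotypes at every called region. All 23 regions higher in BALB/c iNKT2 had a positive change in SKG and 19 of them were also called there, and all 17 lower regions had a negative change in SKG, 11 of them called. Of the 30 regions called higher in SKG iNKT2, 19 were called in BALB/c, and of the 15 lower ones 11 were. The pairs of comparisons use different libraries. The matching shares over all regions were not counted here. The study reports the same tendency for subset-specific regions in general, so the shared direction is not a trait of these loci alone.

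**Figure D2:**
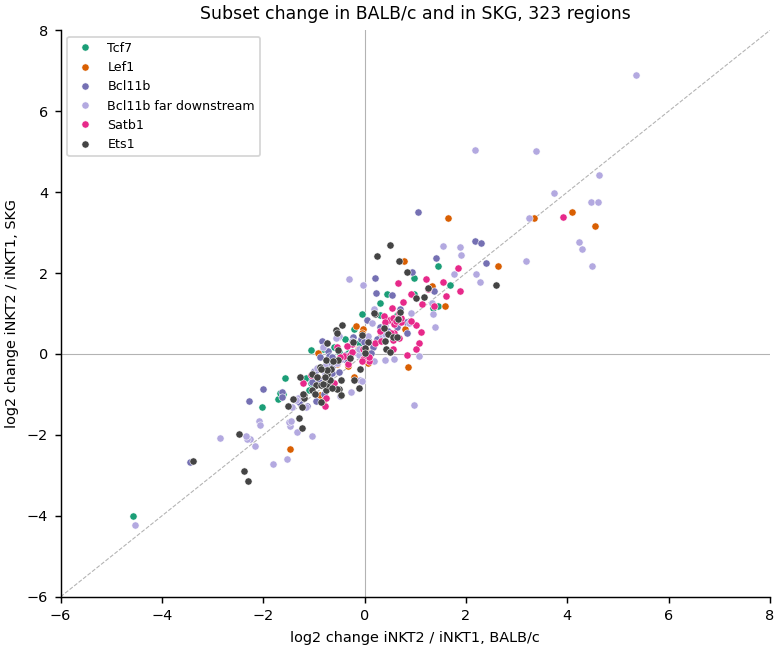
Fitted log2 change iNKT2 over iNKT1 in BALB/c (horizontal axis) and in SKG (vertical axis) for each of the 323 member regions, coloured by locus; the dashed line marks equal change. Regions of large change lie at the upper right and lower left, among them the 19 called higher and the 11 called lower in both genotypes.

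Tcf7 had its clearest difference in an intergenic region 44.3 kb upstream (chr11:52327160-52327501), whose nearest protein-coding start is that of Vdac1, a mitochondrial channel gene. It held 6.15 and 5.60 CPM in BALB/c iNKT1, 6.75 and 4.68 CPM in SKG iNKT1, 0.282, 0.317 and 0.0825 CPM in BALB/c iNKT2, and 0.386, 0.321 and 0.337 CPM in SKG iNKT2. All 4 iNKT1 libraries lay more than 10 times above all 6 iNKT2 libraries. The log2 change from iNKT1 to iNKT2 was -4.58 ± 0.34 in BALB/c (SE; edgeR adjusted p 4.9e-08) and -4.00 ± 0.35 in SKG (edgeR adjusted p 2.7e-07). In the other direction, a region 15.6 kb into Tcf7 (chr11:52267205-52267680, an exon of the non-coding Gm26551) rose in SKG from 0.707 and 1.09 CPM to 4.37, 3.72 and 4.18 CPM, a log2 change of 2.18 ± 0.33 (edgeR adjusted p 5.5e-05). In BALB/c it went from 0.956 and 0.838 CPM to 1.85, 2.91 and 2.68 CPM, without overlap but short of 4-fold (1.45 ± 0.30, edgeR adjusted p 6.4e-04).

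Of the 34 Tcf7 regions, 2 (5.88%, near the 6.36% of all regions) were called lower and 0 higher in BALB/c iNKT2 (23 had an unadjusted p under 0.05, and voom with TMM and DESeq2 called no region higher either), and 1 was called in each direction in SKG. By the adjusted p alone, 3 (8.82%, against 25.7% of all regions) were higher and 13 (38.2%, against 23.4%) lower in BALB/c. In SKG it was 6 each way (17.6%, against 18.4% higher and 17.6% lower of all regions). Past 4-fold, the SKG calls were 2.94% each way, against 10.2% higher and 6.96% lower of all regions. The lower count in BALB/c was 1 without BALB/c iNKT1 replicate 1, BALB/c iNKT2 replicate 2 or 3, or SKG iNKT2 replicate 2, and it was 1 with DESeq2 and 4 under quantile normalization. The SKG region at 15.6 kb was not called without SKG iNKT1 replicate 1 (log2 change 1.90), and without SKG iNKT2 replicate 3 there were 2 such regions. The second region lower in BALB/c iNKT2, 11.3 kb upstream, went from 5.05 and 4.98 CPM to 1.69, 1.11 and 0.866 CPM (-2.02 ± 0.26, edgeR adjusted p 7.9e-06). Below the fold threshold, the strong element 16.8 kb upstream fell from 63.7 and 67.4 CPM in BALB/c iNKT1 to 25.9, 21.4 and 18.9 CPM in BALB/c iNKT2 (-1.57 ± 0.15, edgeR adjusted p 3.6e-07).

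At Lef1, the regions past 4-fold in BALB/c were weak elements open in iNKT2, 4 of 32 (12.5%, below the 15.5% of all regions). The adjusted p alone gave 5 higher and 8 lower in BALB/c iNKT2, and 8 higher and 5 lower in SKG iNKT2. In BALB/c the higher share (15.6%) was below the 25.7% of all regions, and the lower share was near their 23.4%. In SKG the higher share was above the 18.4% of all regions, and the lower share (15.6%) was near their 17.6%. The intronic region 80.4 kb downstream (chr3:131190685-131191021) held 0.119 and 0.176 CPM in BALB/c iNKT1, 0.128 and 0.192 CPM in SKG iNKT1, 2.70, 4.18 and 3.42 CPM in BALB/c iNKT2, and 2.11, 0.873 and 1.35 CPM in SKG iNKT2. Every iNKT2 library was above every iNKT1 library, and the SKG iNKT2 libraries lay below the BALB/c ones. The subset log2 change was 4.54 ± 0.50 in BALB/c (edgeR adjusted p 1.8e-06) and 3.17 ± 0.59 in SKG (edgeR adjusted p 3.9e-04).

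The region at 27.9 kb (chr3:131138236-131138555, an exon of the non-coding Gm42449 within Lef1) rose from 0.418 and 0.264 CPM to 3.86, 9.39 and 4.99 CPM in BALB/c (4.10 ± 0.46, edgeR adjusted p 2.4e-06), and from 0.385 and 0.192 CPM to 3.98, 2.39 and 3.57 CPM in SKG (3.50 ± 0.56, edgeR adjusted p 8.7e-05). Both Lef1 regions lost their SKG call with limma and voom (adjusted p 0.02 at 80.4 kb and 0.014 at 27.9 kb), and the one at 80.4 kb also lost it without SKG iNKT1 replicate 1 (edgeR adjusted p 0.01). Further intragenic regions at 5.8 and 57.5 kb were called higher in iNKT2 in both genotypes, which makes 4 regions called higher and 0 lower in BALB/c (voom with TMM and DESeq2 called 0 lower and voom after quantile normalization 1, and 19 of the 32 had an unadjusted p under 0.05), and 6 higher and 1 lower in SKG. The SKG count of 6 (18.8%, against 10.2% of all regions) was 3 without SKG iNKT1 replicate 1 and 1 with limma and voom. The region called lower in SKG lay 45.3 kb upstream, with 2.63 and 3.72 CPM in SKG iNKT1 and 0.951, 0.367 and 0.405 CPM in SKG iNKT2 (-2.35 ± 0.38, edgeR adjusted p 1.1e-04).

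Against these weak elements stood the strongest Lef1 region outside a coding start, 98.0 kb downstream in the last part of the gene, nearest to the Hadh start. It held 60.9 to 66.0 CPM in BALB/c iNKT2 and 91.2 and 96.4 CPM in BALB/c iNKT1 (-0.55 ± 0.13, edgeR adjusted p 0.0014), and in SKG 79.1 to 91.8 CPM against 91.1 and 111 CPM (-0.24 ± 0.13, edgeR adjusted p 0.13). The summed level of the whole Lef1 locus was lower in iNKT2 (344 to 371 CPM in BALB/c and 341 to 364 CPM in SKG) than in iNKT1 (450 and 454 CPM, and 403 and 451 CPM). Yet every region called in BALB/c was higher in iNKT2.

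In BALB/c, Bcl11b carried its largest gene-body difference near the 3′ end. The intronic region 78.6 kb downstream of the start (chr12:107924689-107925301) held 25.1 and 26.0 CPM in BALB/c iNKT1, 22.2 and 20.4 CPM in SKG iNKT1, 2.42, 2.27 and 2.31 CPM in BALB/c iNKT2, and 3.80, 3.54 and 2.49 CPM in SKG iNKT2. The subsets did not overlap, with log2 changes of -3.45 ± 0.18 in BALB/c (edgeR adjusted p 4.7e-09) and -2.67 ± 0.19 in SKG (edgeR adjusted p 3.6e-08). The strongest region of the gene outside a coding start, 82.3 kb downstream, changed less, from 82.2 and 80.0 CPM to 41.7, 45.3 and 43.6 CPM in BALB/c (-0.90 ± 0.12, edgeR adjusted p 8.8e-06).

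The opposite pattern was present within the same introns. At 33.4 kb (chr12:107969972-107970358), BALB/c went from 0.567 and 0.617 CPM in iNKT1 to 2.73, 2.80 and 3.22 CPM in iNKT2 (2.29 ± 0.35, edgeR adjusted p 4.4e-05) and SKG from 0.450 and 0.449 CPM to 2.88, 4.18 and 1.96 CPM (2.74 ± 0.41, edgeR adjusted p 5.1e-05). Regions at 50.1 and 62.6 kb were also called higher in both genotypes. In all, 3 of the 58 regions (5.17%) were called higher and 3 lower in BALB/c iNKT2, below the 15.5% and 6.36% of all regions, and 5 (8.62%, against 10.2%) higher and 1 lower in SKG iNKT2. The balance was different with the adjusted p alone. In BALB/c iNKT2, 4 (6.90%, against 25.7% of all regions) were higher and 19 (32.8%, against 23.4%) lower. In SKG iNKT2, 9 (15.5%, against 18.4%) were higher and 10 (17.2%, against 17.6%) lower. The BALB/c higher count was 1 without BALB/c iNKT1 replicate 2 and 0 under quantile normalization, and the SKG higher count was 3 without SKG iNKT1 replicate 1.

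In the desert downstream of Bcl11b, the unit with the most regions, 14 of 72 (19.4%, against 15.5% of all regions) were called higher and 8 (11.1%, against 6.36%) lower in BALB/c iNKT2. In SKG iNKT2, 13 (18.1%, against 10.2%) were called higher and 9 (12.5%, against 6.96%) lower. By the adjusted p alone, 21 (29.2%, against 25.7% of all regions) were higher in BALB/c iNKT2. There 18 were lower, a share near the 23.4% of all regions. In SKG iNKT2 it was 19 each way (26.4%, against 18.4% higher and 17.6% lower of all regions). Past 4-fold, the lower counts were 5 without BALB/c iNKT1 replicate 1 and, in SKG, 5 without SKG iNKT2 replicate 3. Between 750 kb and 1 Mb lay 29 regions, 7 called higher and 2 lower in BALB/c and 7 and 4 in SKG. From 250 to 500 kb the balance was the other way, with 1 of 17 called higher and 5 lower in BALB/c, and 0 and 3 in SKG. Of the 72 regions, 22 had the Bcl11b start as their nearest coding start, and the others lay nearer to 3110018I06Rik, so the gene that a region acts on is not given by these data.

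The region at 819.1 kb (chr12:107184212-107184869, an intron of the non-coding Gm2800) held 0.806 and 0.705 CPM in BALB/c iNKT1, 1.35 and 1.28 CPM in SKG iNKT1, 16.9, 16.8 and 17.2 CPM in BALB/c iNKT2, and 17.4, 16.6 and 19.8 CPM in SKG iNKT2. All iNKT2 libraries were more than 10 times above all iNKT1 libraries (log2 change 4.47 ± 0.22 in BALB/c, edgeR adjusted p 4.0e-09, and 3.76 ± 0.22 in SKG, edgeR adjusted p 9.9e-09). The one at 879.1 kb behaved alike, with 0.385 to 0.835 CPM over the 4 iNKT1 libraries and 9.75 to 15.1 CPM over the 6 iNKT2 libraries. Between them, the region at 866.4 kb (chr12:107136988-107137372) went the other way, from 8.15 and 7.01 CPM in BALB/c iNKT1 and 7.65 and 7.38 CPM in SKG iNKT1 to 0.565, 0.132 and 0.289 CPM in BALB/c iNKT2 and 0.654, 0.184 and 0.202 CPM in SKG iNKT2. Its log2 changes were -4.54 ± 0.41 (edgeR adjusted p 2.6e-07) and -4.23 ± 0.42 (edgeR adjusted p 9.5e-07). Regions of opposite subset preference thus lay within 50 kb of each other.

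The strongest far downstream region, 282.4 kb from the start (chr12:107720833-107721660), fell from 48.4 and 56.2 CPM to 13.4, 12.2 and 11.3 CPM in BALB/c (-2.08 ± 0.14, edgeR adjusted p 2.5e-08) and from 46.6 and 49.3 CPM to 16.8, 15.7 and 13.1 CPM in SKG (-1.65 ± 0.14, edgeR adjusted p 2.7e-07). The subsets did not overlap within either genotype, but the BALB/c change lay close to 4-fold and was below it under quantile normalization (-1.73), with library totals (-1.80), with the low-count filter (-1.93), and without BALB/c iNKT1 replicate 2 (-1.97) or BALB/c iNKT2 replicate 3 (-1.96).

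**Figure D3:**
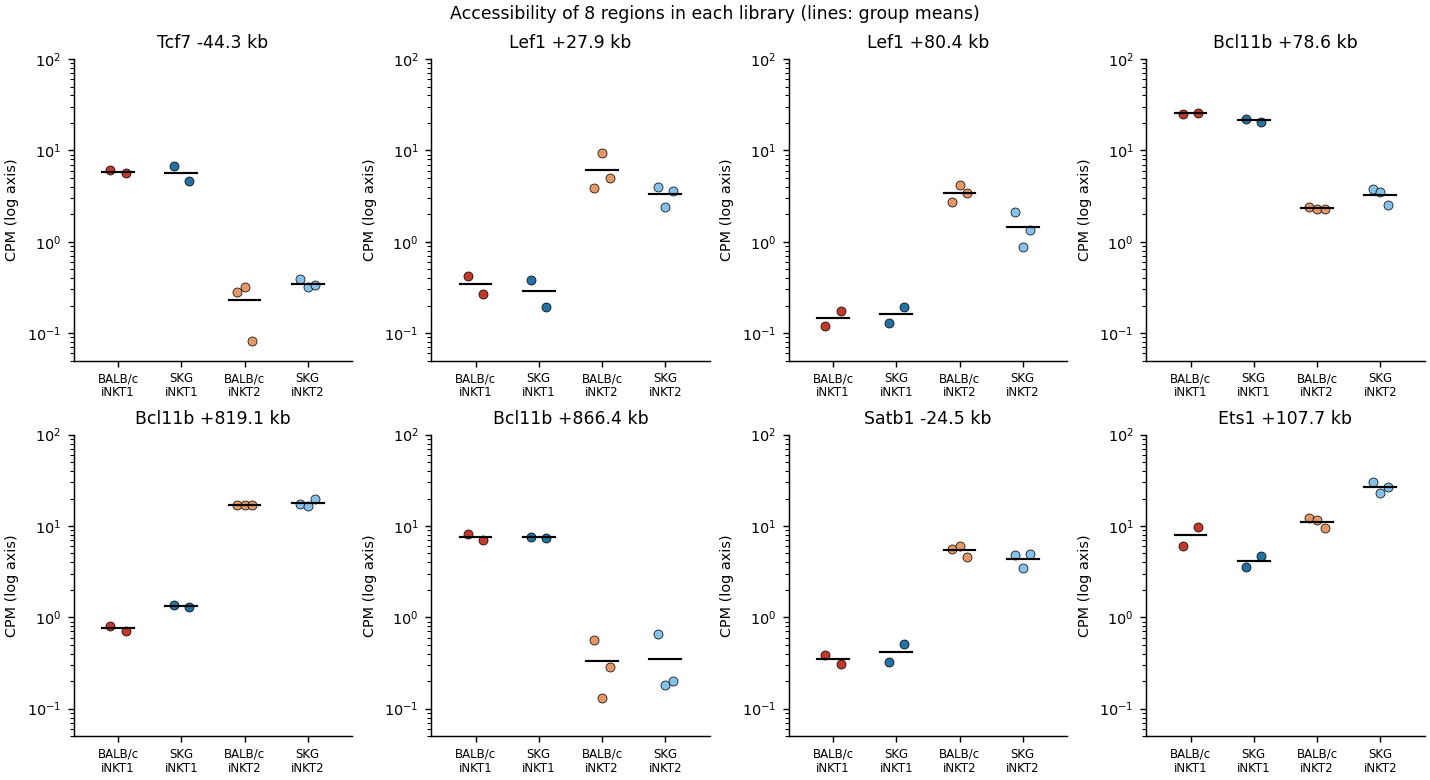
Accessibility in CPM (log axis) of the 8 regions whose sequences are given, one point per library and a line at each group mean (n = 2 for iNKT1 groups, n = 3 for iNKT2 groups). In 7 panels the iNKT1 and iNKT2 libraries do not overlap, and in the Ets1 panel the SKG iNKT2 libraries (23.1 to 30.0 CPM) lie above all others.

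Satb1 had an intergenic region 24.5 kb upstream (chr17:51857667-51858003) that was open in iNKT2. It held 0.388 and 0.309 CPM in BALB/c iNKT1, 0.321 and 0.513 CPM in SKG iNKT1, 5.61, 6.06 and 4.62 CPM in BALB/c iNKT2, and 4.78, 3.49 and 4.92 CPM in SKG iNKT2. The subsets were far apart and the genotypes overlapped in iNKT1 and iNKT2 (log2 change 3.92 ± 0.32 in BALB/c, edgeR adjusted p 1.2e-07, and 3.38 ± 0.36 in SKG, edgeR adjusted p 1.6e-06). A second region, 47.1 kb upstream, was called in SKG (2.14 ± 0.21, edgeR adjusted p 7.2e-07) and stayed under 4-fold in BALB/c (1.85 ± 0.20, edgeR adjusted p 1.3e-06). Without SKG iNKT1 replicate 2 its SKG change was 1.98.

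No other region of the 56 at Satb1 was called between the subsets. That made 1 (1.79%, against 15.5% of all regions) higher in BALB/c iNKT2 and 2 (3.57%, against 10.2%) higher in SKG iNKT2. In both genotypes 0 were called lower, against 6.36% of all regions in BALB/c and 6.96% in SKG. The BALB/c count of 1 became 3 without BALB/c iNKT1 replicate 1, or 2 without BALB/c iNKT2 replicate 1. The Satb1 regions had a median log2 change of 0.55 in BALB/c iNKT2 (all regions, 0.06) and of 0.53 in SKG iNKT2 (all regions, 0.14). It stayed above that of all regions under each scaling tried, but was 0.24 in BALB/c under quantile normalization and 0.29 in SKG without SKG iNKT2 replicate 1. With library totals in place of TMM, the median over all regions was itself 0.34 in BALB/c. The strongest Satb1 region away from a coding start, 43.2 kb upstream, went the other way, from 32.8 and 31.5 CPM to 17.8, 19.3 and 19.4 CPM in BALB/c (-0.77 ± 0.13, edgeR adjusted p 8.2e-05).

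The 50 kb limit set which elements were counted. Just inside it upstream of Satb1, a region at 47.8 kb had log2 changes of 0.61 in BALB/c and 0.81 in SKG, and the first one outside, at 58.5 kb, had -4.61 and -4.76. Upstream of Lef1 the last region inside was the one at 45.3 kb, and the first one outside, at 53.2 kb with a mean of 51.6 CPM, had -1.78 and -1.52. For Bcl11b the last region within 1 Mb, at 992 kb, had 0.19 and -0.18, and the next, at 1010.4 kb, had 1.59 and 0.08. Upstream of Tcf7 the last region inside was the one at 44.3 kb, open in iNKT1. The first one outside, at 53.1 kb, went the other way, with 0.0896 and 0.0441 CPM in BALB/c iNKT1, 0 in both SKG iNKT1 libraries, 1.25, 1.32 and 1.57 CPM in BALB/c iNKT2, and 1.87, 0.459 and 1.48 CPM in SKG iNKT2. Upstream of Ets1 regions at 46.1 kb inside and 54.2 kb outside had changes between -0.25 and 0.29.

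Ets1 had called regions in both directions: those higher in iNKT1 lay upstream of the gene and in its first part, and the 3 called higher in SKG iNKT2 lay in its last part. The intronic region 24.1 kb downstream (chr9:32660131-32660486) held 7.86 and 7.76 CPM in BALB/c iNKT1, 7.0 and 8.92 CPM in SKG iNKT1, 1.91, 1.27 and 1.32 CPM in BALB/c iNKT2, and 1.52, 0.689 and 0.809 CPM in SKG iNKT2. The subsets did not overlap, while the genotypes did in each subset (-2.37 ± 0.28 in BALB/c, edgeR adjusted p 3.2e-06, and -2.90 ± 0.30 in SKG, edgeR adjusted p 1.4e-06). Regions at 25.7 and 44.2 kb were called lower in both genotypes, and one 18.6 kb upstream (17.5 and 22.2 CPM against 4.83, 2.96 and 2.84 CPM) was called lower in BALB/c (-2.48 ± 0.27, edgeR adjusted p 1.5e-06). In all, 4 of 71 regions (5.63%, near the 6.36% of all regions) were called lower and 1 higher in BALB/c iNKT2, and 3 lower and 3 higher (4.23% each) in SKG iNKT2. Of all regions, 6.96% were called lower and 10.2% higher in SKG iNKT2. With the adjusted p alone, 5 (7.04%, against 25.7% of all regions) were higher and 23 (32.4%, against 23.4%) lower in BALB/c. In SKG, 9 (12.7%, against 18.4%) were higher and 14 (19.7%, against 17.6%) lower. The SKG lower count was 5 without SKG iNKT2 replicate 1.

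The region called higher in BALB/c iNKT2 lay at 40.5 kb (0.418 and 0.309 CPM against 1.66, 2.86 and 2.27 CPM, 2.60 ± 0.40, edgeR adjusted p 4.3e-05), and its change was 1.73 under quantile normalization, short of 4-fold. The strongest region outside a coding start, at 104.8 kb, was at 43.6 to 52.4 CPM in all 10 libraries, with log2 changes of 0.01 ± 0.12 and 0.02 ± 0.12 between the subsets (edgeR adjusted p 0.97 and 0.92). The 3 regions called higher in SKG iNKT2, at 92.3, 107.7 and 114.1 kb, lie on both sides of it.

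The promoters did not carry these differences. The Tcf7 promoter region held 8.95 and 9.77 CPM in BALB/c iNKT1 and 4.71 to 7.50 CPM in BALB/c iNKT2 (-0.71 ± 0.24, edgeR adjusted p 0.018), and the Lef1 promoter region 7.06 to 10.8 CPM over all 10 libraries (0.17 ± 0.18 in BALB/c, edgeR adjusted p 0.41). At Bcl11b the region at the start fell from 6.18 and 4.36 CPM to 2.57, 1.77 and 2.14 CPM in BALB/c (-1.30 ± 0.34, edgeR adjusted p 0.0034), the one promoter region of the 5 that passed the adjusted p there. The Satb1 promoter region was high in every library (83.9 to 116 CPM, BALB/c change -0.25 ± 0.12, edgeR adjusted p 0.077).

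The region at the 5′ end of the Ets1 gene record was weak (0.578 to 1.56 CPM). A strong region lay at a coding start 59.8 kb into the record, with 88.3 ± 0.601 CPM in BALB/c iNKT1 (SD, n = 2), 102 ± 2.78 in SKG iNKT1 (SD, n = 2), 52.6 ± 3.91 in BALB/c iNKT2 (SD, n = 3) and 61.4 ± 4.81 in SKG iNKT2 (SD, n = 3). It was lower in iNKT2 in both genotypes, by less than 2-fold (log2 change -0.75 in BALB/c and -0.73 in SKG, both past the adjusted p of 0.01 with edgeR). Likewise Lef1 had a strong coding-start region 1.9 kb into the gene (60.1 ± 4.0 CPM in BALB/c iNKT1 and 63.9 ± 3.39 CPM in BALB/c iNKT2; SD, n = 2 and 3), which did not differ detectably between the subsets (0.09, edgeR adjusted p 0.59). No promoter region of the 5 genes was called in any of the 5 comparisons.

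The summed level of each locus gives the balance of its strong elements. In BALB/c, Tcf7 summed to 399 and 408 CPM in iNKT1 and 213 to 265 CPM in iNKT2, Bcl11b at the gene to 439 and 471 CPM and 270 to 287 CPM, and Ets1 to 777 and 810 CPM and 506 to 588 CPM. In SKG the subsets overlapped at Tcf7 (357 and 368 CPM in iNKT1 and 296 to 361 CPM in iNKT2) and did not at Bcl11b (451 and 470 CPM, and 354 to 383 CPM) or Ets1 (765 and 789 CPM, and 549 to 696 CPM). In BALB/c, Satb1 did not share this fall, with 464 CPM in each iNKT1 library and 482 to 489 CPM in iNKT2. Over all regions, the median BALB/c subset log2 change was 1.63 below 1 CPM and -0.40 at 10 CPM and above. Member regions gave 0.84 and -0.64. With library totals in place of TMM, the BALB/c medians were -0.15 at Tcf7, -0.19 at the Bcl11b gene and -0.26 at Ets1. With TMM they were -0.44, -0.47 and -0.55. All regions gave 0.34 with library totals and 0.06 with TMM. The part of signal strength or scaling in these sums was not tested. In these bulk libraries, a smaller share of cells with an open element and less opening per cell cannot be told apart.

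**Figure D4:**
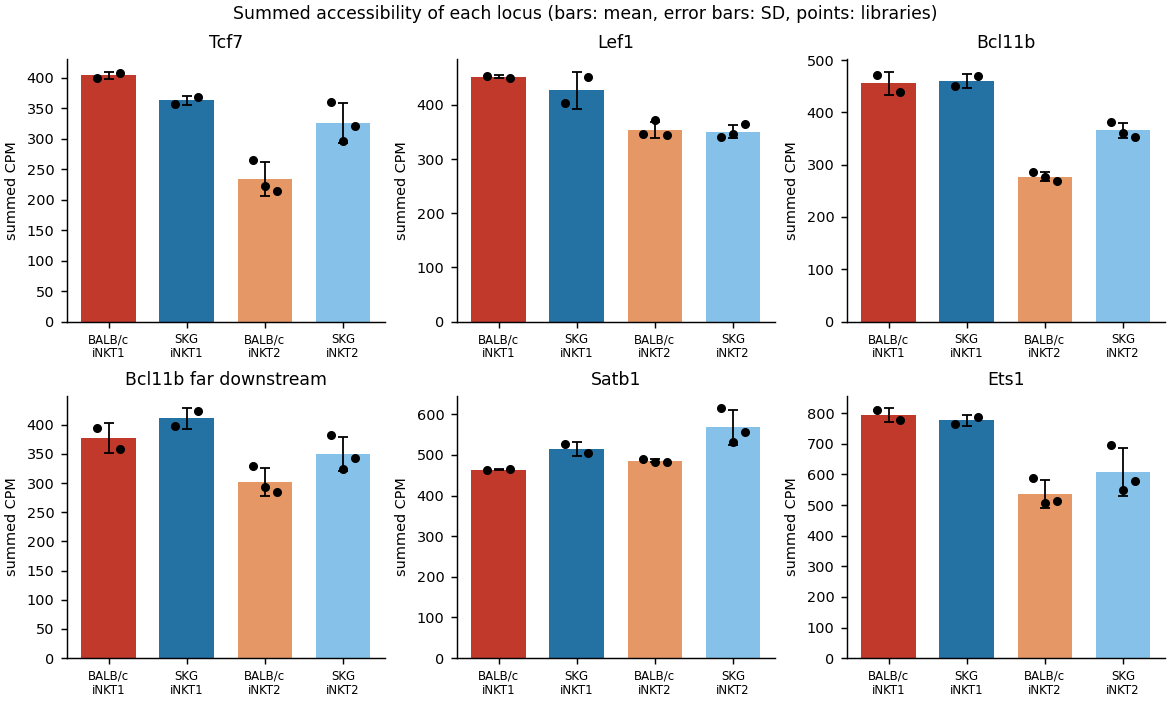
Summed CPM of all member regions of each locus by group (bars are means from 0, error bars are SD, points are libraries, n = 2 for iNKT1 and n = 3 for iNKT2 groups). At Tcf7 the 3 SKG iNKT2 libraries (296 to 361 CPM) lie above the 3 BALB/c iNKT2 libraries (213 to 265 CPM), and at Bcl11b likewise (354 to 383 against 270 to 287 CPM), while the Lef1 libraries of the 2 genotypes overlap in iNKT2.

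The next question was whether the weak Zap70 allele goes with altered accessibility at these loci. In iNKT1, edgeR called 0 of 323 regions in either direction (background 0.281% higher and 0.732% lower in SKG). There were 48 member regions with an unadjusted p under 0.05, and limma with voom and DESeq2 called 0 as well. With the adjusted p alone, 2 regions (0.619%, against 0.662% of all regions) were higher and 2 (0.619%, against 1.42%) lower.

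All 4 regions that passed the adjusted p in iNKT1 had the same direction in iNKT2, and 3 of them passed it there. The Lef1 intronic region at 60.9 kb (chr3:131171087-131171655) held 6.30 and 6.57 CPM in BALB/c iNKT1 and 1.41 and 1.92 CPM in SKG iNKT1, 5.90, 5.61 and 6.02 CPM in BALB/c iNKT2 and 2.73, 1.29 and 1.21 CPM in SKG iNKT2. All 5 SKG libraries were below all 5 BALB/c libraries, with a log2 change of -1.94 ± 0.34 in iNKT1 (edgeR adjusted p 0.0034) and -1.67 ± 0.26 in iNKT2 (edgeR adjusted p 3.0e-04), short of 4-fold in both. Without SKG iNKT2 replicate 1, 1 Lef1 region was called lower in SKG iNKT2.

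The reverse held 274.1 kb downstream of Bcl11b (chr12:107729304-107729649, an exon of the non-coding 4930465M20Rik). There BALB/c held 4.24 and 3.48 CPM in iNKT1 and 5.14, 4.97 and 5.28 CPM in iNKT2, and SKG held 13.2 and 14.0 CPM in iNKT1 and 12.2, 11.9 and 12.4 CPM in iNKT2. The genotypes did not overlap while the subsets were nearly level (1.81 ± 0.20 in iNKT1, edgeR adjusted p 7.1e-05, and 1.25 ± 0.15 in iNKT2, edgeR adjusted p 3.5e-05). The remaining pair was the Ets1 region at 16.2 kb, lower in SKG (-1.52 ± 0.30 in iNKT1, edgeR adjusted p 0.0078, and -0.99 ± 0.25 in iNKT2, edgeR adjusted p 0.0093), and a region 879.8 kb downstream of Bcl11b, higher in SKG (1.42 ± 0.25 in iNKT1, edgeR adjusted p 0.0031, and 0.69 ± 0.18 in iNKT2, edgeR adjusted p 0.011). These regions were singled out after their values were seen.

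In iNKT2, the SKG genotype went with a small and broad rise at Tcf7 and Bcl11b rather than with 4-fold changes. Called regions numbered 0 higher (background 0.252%) and 2 lower (background 4.73%), both far downstream of Bcl11b. DESeq2 and limma with voom also called 0 higher and voom after quantile normalization 7, and 115 regions had an unadjusted p under 0.05. With the adjusted p alone, 17 (5.26%, against 4.02% of all regions) were higher and 10 (3.10%, against 10.1%) lower. The 17 comprised 5 at Tcf7, 4 at Bcl11b, 4 far downstream of it, 2 at Satb1 and 2 at Ets1. The 10 comprised 3 at Lef1, 4 far downstream of Bcl11b and 3 at Ets1.

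The Tcf7 locus shows the pattern. Of its 34 regions, 31 had a positive log2 change in SKG iNKT2, with a median of 0.52, against a median of 0.01 over all regions. The region of smallest p, 17.3 kb into the gene (chr11:52265537-52265963), held 27.6, 21.8 and 20.7 CPM in BALB/c iNKT2 and 41.2, 34.3 and 40.2 CPM in SKG iNKT2, without overlap (0.72 ± 0.13, edgeR adjusted p 0.0011). In iNKT1 it held 40.6 and 42.1 CPM in BALB/c and 32.9 and 37.4 CPM in SKG (-0.23 ± 0.16, edgeR adjusted p 0.54), so SKG iNKT2 stood near the iNKT1 levels. The strong element 16.8 kb upstream rose from 25.9, 21.4 and 18.9 CPM to 36.4, 30.5 and 35.0 CPM (0.62 ± 0.13, edgeR adjusted p 0.0032), still below iNKT1 (47.8 to 67.4 CPM). The strongest Tcf7 region outside a coding start, 31.3 kb upstream, held 51.3, 41.7 and 40.3 CPM and 60.5, 50.3 and 57.4 CPM, and overlapped (0.34 ± 0.13, edgeR adjusted p 0.061). In the interaction, the median over the Tcf7 regions was 0.60, with 31 of 34 positive, against 0.06 over all regions, but no Tcf7 region passed an adjusted p of 0.01 there (9 had an unadjusted p under 0.05).

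At the Bcl11b gene 54 of 58 regions had a positive change (median 0.45). In the intronic region at 72.9 kb (chr12:107930592-107930911), BALB/c iNKT2 held 8.47, 10.5 and 10.1 CPM and SKG iNKT2 15.8, 20.7 and 18.9 CPM (0.93 ± 0.15, edgeR adjusted p 3.5e-04). Satb1 had 49 of 56 positive (median 0.24) and its region at 26.2 kb went from 12.4, 13.4 and 10.8 CPM to 22.8, 20.4 and 21.6 CPM (0.82 ± 0.13, edgeR adjusted p 3.0e-04). Without SKG iNKT2 replicate 1 the Satb1 median was 0.07, with 34 of 56 positive, and without BALB/c iNKT2 replicate 3 it was 0.15. Ets1 had 44 of 71 positive (median 0.13) and the far downstream regions of Bcl11b 45 of 72 (median 0.18), and both moved by over 1.5 times on leaving out single libraries. Ets1 gave -0.06 without SKG iNKT2 replicate 1, and -0.03, 0.04 and 0.24 without replicate 3, 2 or 1 of BALB/c iNKT2. In the same order of omissions the far downstream regions gave 0.07, 0.02, 0.09 and 0.33. The locus medians are counts over regions that share libraries, and no test was made of them.

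Lef1 differed in sign from Tcf7, its closest relative. Only 11 of its 32 regions had a positive change in SKG iNKT2 (median -0.21), and in iNKT1 6 of 32 did (median -0.28). The iNKT2 median stayed negative on leaving out any library and reached -0.35 without SKG iNKT2 replicate 3, with 5 of 32 positive without BALB/c iNKT2 replicate 3, and the iNKT1 median was -0.18, with 11 of 32 positive, without BALB/c iNKT1 replicate 1. The 3 regions below the adjusted p of 0.01 were the one at 60.9 kb, one 16.6 kb upstream (-1.24), and the iNKT2-open one at 80.4 kb (-1.21 ± 0.31, edgeR adjusted p 0.0099), whose SKG iNKT2 libraries all lay below the BALB/c ones. The signs of the medians of Tcf7, Lef1, Bcl11b and Satb1, taken relative to the median of all regions, held under each scaling tried. For Ets1 the median itself was -0.01 with library totals.

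**Figure D5:**
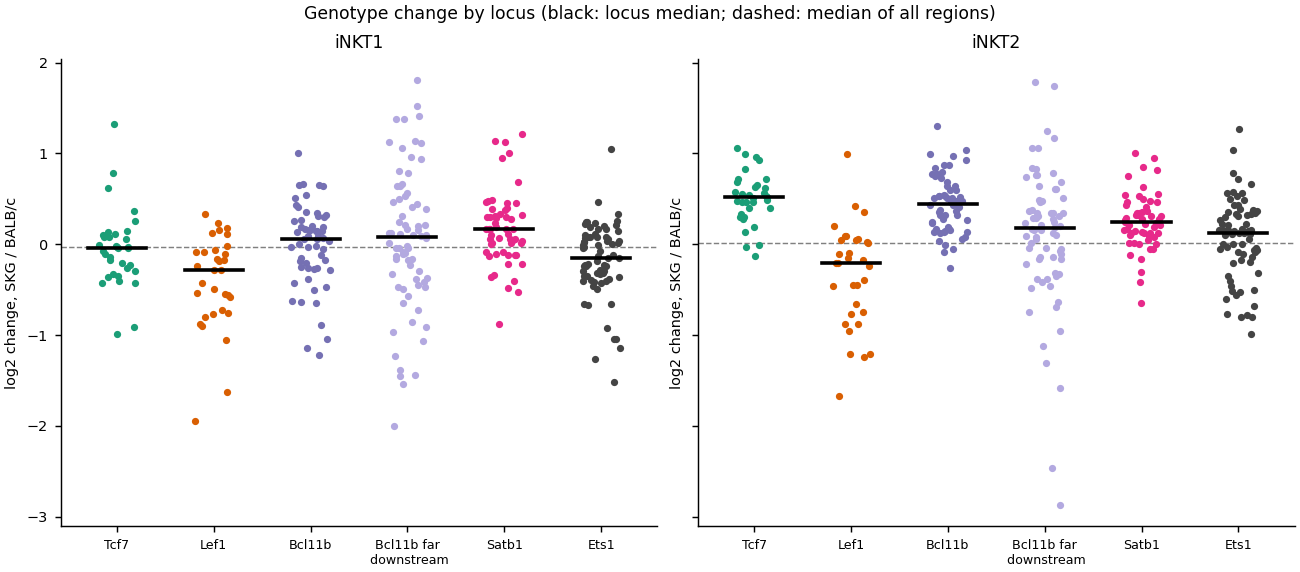
Fitted log2 change SKG over BALB/c of each member region in iNKT1 (left) and iNKT2 (right), grouped by locus; black bars are locus medians and the dashed line is the median of all 94823 regions. In iNKT2 the medians of Tcf7 (0.52) and Bcl11b (0.45) lie above the line and that of Lef1 (-0.21) below it; in iNKT1 the medians run from -0.28 at Lef1 to 0.17 at Satb1.

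Signal strength moved with this comparison. Over all regions, the median iNKT2 genotype change ran from -0.71 below 1 CPM to 0.22 at 10 CPM and above. For the member regions the same bins gave -0.09 below 1 CPM and 0.31 at 10 CPM and above, and in the 3 bins between they gave 0.15, 0.25 and 0.20 against -0.17, -0.01 and 0.06 over all regions. The median level of the member regions was 3.35 CPM and that of all regions 3.02 CPM. Markers moved with it too. The iNKT2 promoter list summed to 87.5 to 94.8 CPM in BALB/c iNKT2 and, without overlap, to 110 to 129 CPM in SKG iNKT2. Its genes did not rise alike. In the same order, Ccr7 held 19.4 to 26.0 and 35.1 to 47.5 CPM, and Icos 37.4 to 42.7 and 47.0 to 49.3 CPM. Il17rb was nearer level (15.1 to 18.2 and 18.8 to 18.9 CPM), and Gata3 overlapped (2.45 to 3.33 and 2.88 to 5.06 CPM). Il4 held 8.53, 6.06 and 6.68 CPM in BALB/c iNKT2 and 10.1, 3.49 and 2.23 CPM in SKG iNKT2. Markers of iNKT17 cells did not move one way: the Il17a promoter held 4.49 to 6.18 CPM in BALB/c iNKT2 and 0.624 to 1.75 CPM in SKG iNKT2, the Ccr6 promoter 0.660 to 1.08 CPM and 2.38 to 3.03 CPM, and the list summed to 24.1 to 35.2 CPM and 22.9 to 38.7 CPM. The part of signal strength or of these markers in the genotype values was not tested.

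The 2 called regions were weak. At 535.6 kb downstream of Bcl11b the level went from 2.04, 0.688 and 1.15 CPM in BALB/c iNKT2 to 0.178, 0.0918 and 0.270 CPM in SKG iNKT2 (-2.87 ± 0.57, edgeR adjusted p 0.0017), and it lost the call with limma and voom (adjusted p 0.012), under quantile normalization (adjusted p 0.037) and without SKG iNKT2 replicate 2 (adjusted p 0.011). At 175.7 kb it went from 1.57, 1.56 and 2.10 CPM to 0.386, 0.138 and 0.405 CPM (-2.47 ± 0.50, edgeR adjusted p 0.0021). The count of 2 was 0 without SKG iNKT2 replicate 2, 1 without BALB/c iNKT2 replicate 3, or 4 without SKG iNKT2 replicate 1. In contrast, a pair of adjoining regions at 223.8 and 224.2 kb, inside the non-coding Gm15208, rose in SKG iNKT2. The second went from 1.79, 2.86 and 2.80 CPM to 7.46, 8.36 and 9.98 CPM (1.78 ± 0.23, edgeR adjusted p 5.1e-05), and the iNKT1 libraries held 0.192 to 0.661 CPM. In this stretch of far downstream regions, 1 was called higher without BALB/c iNKT2 replicate 1.

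Whether the genotype change differs between the subsets was tested as an interaction, the iNKT2 change minus the iNKT1 change. edgeR called 1 region with a more positive change in iNKT2 (background 0.189%) and 0 with a more negative one (background 0.341%), and limma with voom and DESeq2 also called 0 more negative. An unadjusted p under 0.05 was reached by 47 regions. The called region lies 107.7 kb into Ets1 (chr9:32743677-32744112, intron). It held 6.03 and 9.79 CPM in BALB/c iNKT1, 3.60 and 4.68 CPM in SKG iNKT1, 12.3, 11.6 and 9.44 CPM in BALB/c iNKT2, and 30.0, 23.1 and 27.0 CPM in SKG iNKT2. SKG was lower than BALB/c in iNKT1 and higher in iNKT2, without overlap in either subset. The interaction was 2.19 ± 0.32 on the log2 scale (edgeR adjusted p 0.0021), with a genotype change of 1.26 ± 0.19 in iNKT2 (edgeR adjusted p 1.7e-04) and -0.92 ± 0.26 in iNKT1 (edgeR adjusted p 0.051).

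The flanking Ets1 regions moved in the same sense. At 114.1 kb the levels were 2.21 and 4.41, 1.16 and 1.80, 3.26, 4.58 and 3.75, and 9.18, 8.27 and 6.34 CPM in the same order of groups (interaction 2.18 ± 0.45, edgeR adjusted p 0.014), and at 92.3 kb the interaction was 1.60 ± 0.33 (edgeR adjusted p 0.015). With the replicate block, which pairs libraries of one number, 4 regions were called more positive: those at 107.7 and 114.1 kb of Ets1, and those 224.2 and 437.0 kb downstream of Bcl11b. DESeq2 called 3. The call at 107.7 kb was lost under quantile normalization (1.92, adjusted p 0.011) and on leaving out BALB/c iNKT1 replicate 2 (1.81, edgeR adjusted p 0.023), SKG iNKT1 replicate 1 (2.01, 0.029), SKG iNKT1 replicate 2 (2.39, 0.015) or BALB/c iNKT2 replicate 3 (2.01, 0.01), and 2 regions were called without SKG iNKT2 replicate 1.

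The letters of the regions were then compared with their subset preference, in the central 300 bases of each. Of the 34 member regions called higher in iNKT2 in at least 1 genotype, 20 (58.8%) held the TCF/LEF string, and of the 21 called higher in iNKT1, 1 (4.76%) did, the Tcf7 region at 44.3 kb. Over all member regions the share was 22.0%, over all 94823 regions 21.5%, over all 17124 regions called higher in iNKT2 31.9%, and over all 8043 called higher in iNKT1 20.8%. The 20 were spread over every locus: 9 of 16 far downstream of Bcl11b, 3 of 5 at the gene, 4 of 6 at Lef1, 2 of 4 at Ets1, 1 of 2 at Satb1 and the 1 at Tcf7. The RUNX string showed the opposite order, with 7 of 34 (20.6%) against 12 of 21 (57.1%), and 32.0% and 51.8% of all regions called in the same directions. ETS strings were in 20.6% and 47.6% of these members, against 42.7% and 53.5% of all regions called in the same directions. For E-box strings the shares were 2.94% and 28.6%, against 17.3% and 18.7%, for NFAT strings 35.3% and 9.52%, against 28.9% and 21.2%, and for GATA strings 11.8% and 14.3%, against 19.1% and 16.1%. T-box strings were in 1 region of each set, against 4.06% and 14.4% of all regions so called, and EGR strings likewise, against 3.77% and 1.88%. Median GC content was 49.7% in the iNKT2-high and 49.0% in the iNKT1-high member regions. These shares describe regions chosen by their subset change, and no test was made of them.

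Genes of the same families gave the setting. Around 8 relatives and partners of TCF-1 and LEF-1 (Tcf7l1, Tcf7l2, Ctnnb1, Axin2, Bcl9, Tle1, Tle3 and Tle4), 29 of 124 regions (23.4%, against 15.5% of all regions) were called higher and 3 lower in BALB/c iNKT2, and 18 (14.5%, against 10.2%) higher and 4 lower in SKG iNKT2. Between the genotypes in iNKT2, 0 were higher and 4 (3.23%, against 4.73%) lower in SKG. The median log2 change of these regions was 0.47 in BALB/c, and the Tcf7 and Lef1 regions had medians of -0.44 and 0.06. Around 8 other T lineage genes (Gata3, Runx1, Tcf12, Notch1, Cd3e, Thy1, Cd28 and Lck), 11 of 218 (5.05%, against 15.5% of all regions) were called higher and 12 (5.50%, against 6.36%) lower in BALB/c iNKT2, and 14 (6.42%, against 10.2%) higher and 13 (5.96%, against 6.96%) lower in SKG iNKT2. Between the genotypes in iNKT2, 2 (0.917%, against 0.252%) were higher and 0 lower in SKG. Their median genotype change in iNKT2 was 0.35.

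As a description of the pattern over the 10 libraries, the protein-coding genes whose summed accessibility was most like that of each member were Cdc6, Mien1 and Traf3 for Tcf7, 1700025G04Rik, Hdac4 and Impg1 for Lef1, Tipin, Tfrc and Uchl4 for Bcl11b, Tldc2, P4ha2 and Cyp2d10 for Satb1, and Xirp1, Notch1 and Gdf15 for Ets1. Likeness was Pearson's r of log2 sums over the 10 libraries among 13748 genes. It ran from 0.911 (Cyp2d10) to 0.997 (Xirp1), and the libraries fall into the 2 subsets, which any gene with a subset difference shares.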

How the data were processed

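ATAC-seq insertions were analysed in 10 libraries, grouped by the cell and strain labels. According to the study's methods, the authors mapped paired reads to mm10 with Bowtie (1.0 in the submitters' processing notes), removed mitochondrial and duplicate reads, called MACS2 summits on subnucleosomal fragments of each replicate, merged them over all replicates, dropped chromosome Y and blacklisted regions, and counted insertions. The deposited values are raw counts per region, although their file is named for normalized ones. The totals are insertions inside the regions, not full library depth.

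Counts were fitted over all 94823 regions by a quasi-likelihood F test (edgeR 4.0.16, R 4.3.3) with 1 mean per group (TMM factors, Benjamini-Hochberg adjustment, no filter), with the study's thresholds. SE is the log2 change divided by the square root of F. Leaving out 1 of 2 libraries of a group takes the spread of the remaining one from the other groups. Alternatives were limma 3.58.1 with voom (TMM or quantile), DESeq2 1.42.0, library totals, a low-count filter (71183 regions kept), looser thresholds, fits of 2 groups, the replicate block, omission of each library, and regions nearest to the member gene. The fit was tested on simulated data.

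Between BALB/c and SKG iNKT2, deviations of libraries of the same number correlated at 0.446, 0.136 and 0.156. Those of different number correlated at -0.329 to 0.207, so only the value of replicate 1 stood above them all. Only the replicate block treated libraries of the same number as pairs. The main fit, which gave the changes, SE and edgeR adjusted p of the Results, left them unpaired. Other same-number values ran from -0.0179 to 0.0943. Genes and features are from GENCODE M21 (GRCm38), coordinates are 1-based, and motif strings were counted in the central 300 bases.

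The members, lists, motif strings and tests were chosen with earlier results of these data known. Named regions were, at each locus, the promoter region, the strongest region outside 1 kb of a coding start, the called region of smallest adjusted p in each pairwise comparison and direction, and regions called in the interaction. Where none was called, the region of smallest p could be given. Other regions were named after their values were seen, and the medians by locus and by level and the distance bins were added then. The counts for 1 further list of related genes are not reported here.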

Additional observations from a re-analysis of the deposited data

Results flagged for a closer look

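The Ets1 region 107.7 kb into the gene (chr9:32743677-32744112) stands out because its SKG change differed between the subsets by a direct test. The interaction was 2.19 on the log2 scale (edgeR adjusted p 0.0021). SKG was higher in iNKT2 in all 3 libraries and lower in iNKT1 in both libraries, without overlap with BALB/c in either subset. The groups hold 2 or 3 libraries, too few for a check of single libraries that stand apart. The part of single libraries is given with the values of the interaction above.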

How the results depend on the processing

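Of 474 alternative values for the 28 named region and comparison pairs, 451 kept their direction and their side of the threshold, 23 fell below it with the same direction, and 0 changed direction. Of the 451, 270 came from omissions of single libraries. Many of these omissions took a library from a group outside the comparison, which leaves its change almost as it was. Most pairs were also chosen because they were called, so these counts are no measure of robustness. The counts of called member regions depended mainly on the thresholds. At an adjusted p under 0.05 and 2-fold, BALB/c iNKT2 against iNKT1 gave 50 higher and 58 lower, SKG 70 and 46, SKG against BALB/c iNKT1 3 and 5, the same in iNKT2 10 and 8, and the interaction 6 more positive. With no fold threshold the first 4 comparisons gave 50 and 86, 65 and 58, 2 and 2, and 17 and 10. Library totals left 9 lower regions in BALB/c, and the low-count filter left 10 there and 0 lower in SKG iNKT2 (fewer regions tested). Quantile normalization with voom gave 17 higher in the SKG subset comparison, 7 higher and 1 lower in SKG against BALB/c iNKT2, and 0 in the interaction, and voom with TMM gave 1 lower in SKG against BALB/c iNKT2. DESeq2 gave 3 more positive in the interaction. The cause of these shifts was not tested. Counting only regions nearest to the member gene left 14 higher and 10 lower in BALB/c, 7 lower in SKG and 1 lower in SKG against BALB/c iNKT2 (57 fewer regions).

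Leaving out each library gave 22 to 27 higher and 11 to 20 lower in BALB/c, 26 to 33 and 11 to 19 in SKG, 0 and 0 between the genotypes in iNKT1, 0 to 1 higher and 0 to 4 lower in iNKT2, and 0 to 2 more positive in the interaction. With the replicate block, the paired fit, the interaction gave 4 more positive, BALB/c gave 24 higher and 14 lower, SKG 30 and 11, and iNKT2 0 and 2, and no other count over all members moved by over 1.5 times. At Tcf7 the BALB/c lower count was 1 and far downstream of Bcl11b the SKG lower count 5 under the block. Depth limits the weak regions: 21 of the 323 had a mean under 1 CPM.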
